A study of Saccharomyces cerevisiae with 90 samples.

Results

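The genes described here are those of the peroxisome and of fatty acid oxidation in budding yeast, 45 of the 5449 Saccharomyces cerevisiae genes measured. They were chosen by name. The 25 peroxins are all measured genes whose symbol is PEX followed by a number, and the other 20 are listed enzymes, carriers and regulators of the peroxisomal fatty acid pathway. The 45 genes had 1 probe set each, so no choice between probe sets was needed. Others whose symbol matches the rule were not analysed here.

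In S. cerevisiae the peroxisome is the only place where fatty acids are broken down by beta-oxidation. Pox1 (acyl-CoA oxidase), Fox2 (the multifunctional hydratase and dehydrogenase) and Pot1 (the thiolase) carry out the cycle, catalase removes the hydrogen peroxide that the oxidase makes, and carnitine carries the acetyl units to mitochondria. Glucose represses many of these genes, Adr1 activates them when glucose is scarce, and the pair Oaf1 and Pip2 activates them on fatty acids. The peroxins build the organelle: receptors bring matrix enzymes in, a docking complex, RING ligases and an export machinery handle the receptors, and other peroxins insert membrane proteins or set peroxisome size and number.

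RNA was measured on 90 Affymetrix arrays in 29 groups of 3 arrays, except that the 0 h group of SD agar holds 6. Wild-type cells were taken at 6 h from agar and from liquid in each of the nutrient compositions labelled SG, SLAD and SD, from gelatin in SD, and at 0 h from SD agar and SD liquid. The labels do not spell out SG, SLAD or SD. The labels name 8 strains taken from SD agar and SD liquid at 6 h: msb2, flo11 and tec1 knockouts, Kss1K42R, pRS313-STE11-4 and its plasmid control pRS313, and pRS316-MSB2* and its plasmid control pRS316. The strain PGAL1-FLO11, whose name places FLO11 behind the GAL1 promoter, was taken from agar and liquid in both SG and SD at 6 h. The study asked how yeast responds to touch, with strains altered in a MAP-kinase pathway and in the cell-surface mucins Msb2 and Flo11. The labels do not say whether arrays of a group came from separate cultures, and p-values therefore reflect array-to-array spread, which may be technical. Fewer cells of a kind and less RNA per cell cannot be told apart in such samples.

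Values are RMA signals on the log2 scale, so a difference of 1 is a 2-fold difference. "Rose" and "fell" are used where limma's fit over all 90 arrays gave an adjusted p under 0.05, with the Benjamini-Hochberg adjustment made over all 5449 genes. Changes are given ± their standard error. The background limit of an array lay between 5.72 and 6.33 log2. The number of arrays above it was 58 of 90 for POX1, 60 for POT1, 20 for PEX18 and 89 for SPS19, and the other 41 genes were above it on all 90. Where all arrays of a group were below the limit, the fold is given as a bound. POT1 was above it on 1 of 3 arrays of wild-type SD agar, 2 of 3 of SLAD agar and 2 of 3 of pRS313 SD agar, and POX1 on 2 of 3 of wild-type SD liquid.

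The altered genes were read first. MSB2 was at 4.10 to 5.33 log2 in the msb2 knockout, against 12.59 to 12.80 in wild-type SD arrays from agar and liquid. TEC1 was at 5.23 to 5.70 log2 in the tec1 knockout, against 9.90 to 10.18 in the same wild-type arrays. FLO11 was at 6.12 to 7.28 log2 in the flo11 knockout, against 14.76 to 14.88 in wild-type on SD agar and 10.30 to 10.59 in SD liquid. In the arrays labelled PGAL1-FLO11, FLO11 in SD followed the substrate as in wild-type, at 14.37 to 14.58 log2 on agar and 10.33 to 11.07 in liquid, while GAL1 stayed between 7.86 and 8.69. In SG, GAL1 was at 15.24 to 15.40 log2 in both strains. FLO11 in SG, over agar and liquid, was at 14.36 to 14.95 log2 in wild-type and at 15.16 to 15.25 in PGAL1-FLO11. HIS3 was high only in arrays labelled pRS313 or pRS313-STE11-4, and URA3 only in those labelled pRS316 or pRS316-MSB2*. The gelatin array A stood farthest from its group, with a root mean square difference of 0.893 log2 from the rest of it over all genes, and the SG liquid array C of wild-type was at 0.470.

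The 45 genes did not vary alike over the 29 groups. The range of the group means had a median of 1.75 log2 over the 45 genes and 1.28 over all genes. With values under an array's background limit raised to it, it was at least 5.77 log2 for POX1 and 6.05 for POT1, against 1.86 for FOX2, the remaining enzyme of the cycle, since 9 groups had POX1 and 6 had POT1 below background on all arrays. The median range was 3.98 log2 for the 4 carnitine genes, 2.83 for the 5 genes of fatty acid activation and import, and 2.12 for the 4 auxiliary enzymes. The peroxins varied less, with a median of 1.16 log2 over 25 genes, and PEX34 had the smallest range at 0.65. PEX21 and PEX18, alternative co-receptors of the import receptor Pex7, and PEX27, a relative of PEX11, had wider ranges, of 2.69 log2, at least 2.21 and 2.27. PEX18 was below background on all arrays of 22 groups.

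**Figure D1:**
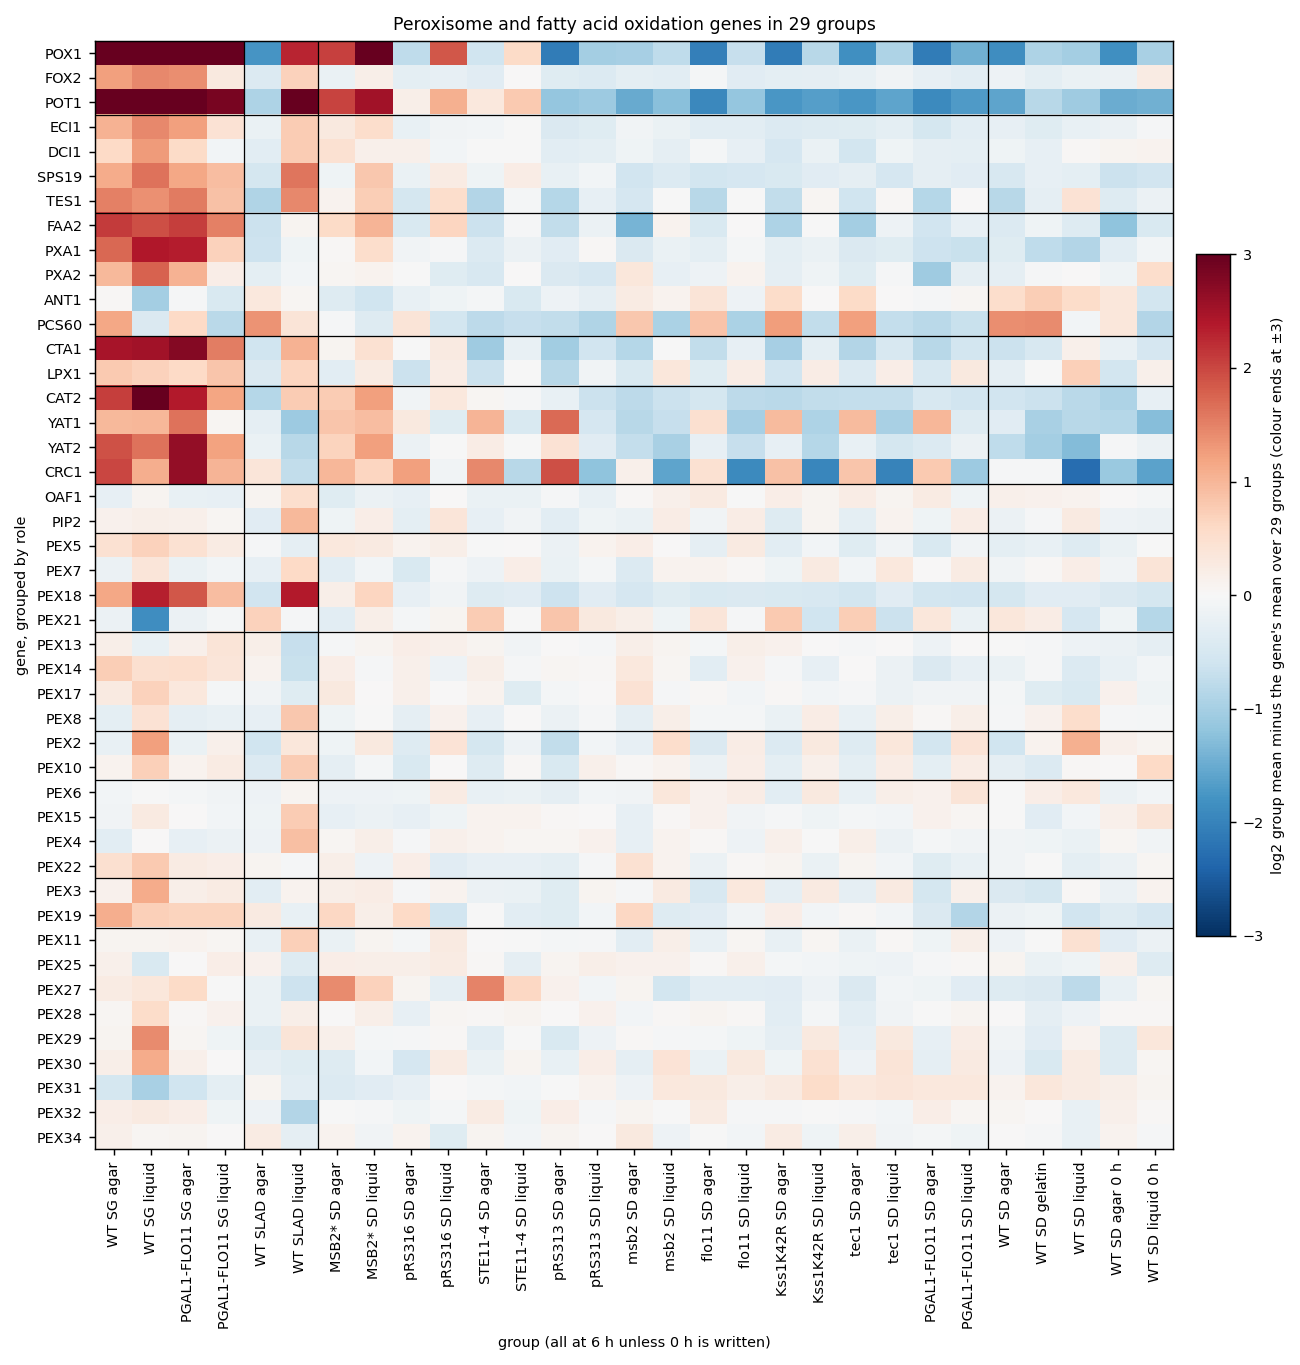
Each row is a gene, grouped by role, and each column a group, with nutrient and substrate named and all groups at 6 h unless 0 h is written. Colour is the log2 group mean minus the gene's mean over the 29 groups, and the colour scale ends at 3 in both directions. POX1, POT1 and PEX18 are high in SG and in SLAD liquid, CTA1 and CAT2 are high in SG, and most other PEX rows stay pale. In SD, MSB2* is also high on both substrates. Its group means in liquid are 10.40 log2 for POX1, 10.04 for POT1 and 11.09 for CAT2, and those on agar are 9.40, 9.55 and 10.61. POX1 is at 9.20 log2 in pRS316 SD liquid.

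Across the 29 group means, POX1 and POT1 had a Pearson correlation of 0.949, and ECI1 and DCI1, the enoyl-CoA isomerase and its relative, one of 0.894. PXA1 and PXA2, which form the fatty acid transporter of the peroxisomal membrane, were at 0.829. The genes most like POT1 in this measure included POX1, SPS19 (the dienoyl-CoA reductase) at 0.944 and PEX18 at 0.922. PEX18 and PEX21 had −0.455. Other pairs of related genes were less alike: YAT1 and YAT2 had 0.694, OAF1 and PIP2 0.249, PEX25 and PEX27 0.137, and PEX30 and PEX31 −0.158. Over all pairs the median was 0.694 among the 18 metabolic genes, which are the 20 listed genes without OAF1 and PIP2, and 0.125 among the 25 peroxins. The group means share the array normalisation and, for many strains, the same medium and substrate, and those of POX1, POT1 and PEX18 lie in part below background, so these values are a description.

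The comparison of SG with SD on agar in wild-type asked what a change of nutrient did to cells on a solid surface. In the 18 metabolic genes, 16 rose, 15 of them at least 2-fold, and 1 fell, with a median change of 1.82 log2. Over all 45 genes 28 rose and 5 fell with a median of 0.56, against 34.9% of all genes tested that rose and 27.6% that fell with a median of 0.05. Under quantile normalisation 22 of the 45 genes rose and 7 fell, with a median of 0.23 log2. With each array centred on its median 24 rose and 6 fell, with a median of 0.46. Rises of at least 2-fold were seen for 17 of the 45 genes and for 8.53% of all genes.

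Among the enzymes of the cycle, POX1 read 11.59, 11.75 and 11.42 log2 on SG agar and 5.36, 5.58 and 5.50 on SD agar. The SG arrays lay far above the SD arrays, all of which were below background, so POX1 was at least 45.2-fold higher in SG (limma, adjusted p = 5.59e-35). POT1 read 11.28, 11.34 and 11.26 log2 on SG agar and 5.86, 5.77 and 6.22 on SD agar. It rose by 5.34 ± 0.23 log2 (limma, adjusted p = 6.86e-31). FOX2 read 11.64, 11.79 and 11.59 log2 on SG agar and 10.24, 10.26 and 10.37 on SD agar. Its groups did not overlap either, and its rise of 1.38 ± 0.10 log2 was the smallest of the 3 (limma, adjusted p = 1.68e-18).

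Catalase and the carnitine genes also rose. CTA1, the peroxisomal catalase, read 10.07, 10.24 and 9.96 log2 on SG agar and 7.17, 6.86 and 6.86 on SD agar, a rise of 3.13 ± 0.14. CAT2, the main carnitine acetyltransferase, read 11.70, 12.07 and 12.03 log2 on SG agar and 9.27, 9.26 and 9.30 on SD agar, a rise of 2.65 ± 0.13. In both genes every SG array lay above every SD array. YAT2 and YAT1, carnitine acetyltransferases outside the peroxisome, rose by 2.67 ± 0.18 and 1.31 ± 0.25 log2, and CRC1, the mitochondrial carnitine carrier, by 2.04 ± 0.27 (limma, adjusted p = 2.73e-09). All 4 carnitine genes rose at least 2-fold, with a median of 2.35 log2.

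In the genes that bring fatty acids in, FAA2, a peroxisomal acyl-CoA synthetase, rose by 2.53 log2, PXA1 by 2.10 and PXA2 by 1.25. ANT1, which exchanges adenine nucleotides across the peroxisomal membrane, went the other way and fell by 0.48 log2. PCS60, a peroxisomal AMP-binding enzyme, was the only metabolic gene that did not pass the test on agar, at −0.23 log2. The auxiliary enzymes TES1, a thioesterase, SPS19, ECI1 and DCI1 rose by 2.35, 1.60, 1.29 and 0.73 log2, and the lipase gene LPX1 by 1.05. Of the activators, OAF1 fell by 0.39 ± 0.07 log2 and PIP2 rose by 0.31 ± 0.12. Under quantile normalisation neither DCI1, at 0.165 log2, nor PIP2, at 0.09, passed.

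Among the 25 peroxins on agar 11 rose and 3 fell, and 2 rose at least 2-fold in measured value, PEX18 and PEX19, with a median of 0.20 log2. PEX18 read 6.998, 7.16 and 6.58 log2 on SG agar and 5.15, 5.29 and 5.28 on SD agar. Every SD agar array was below background for PEX18, so it was at least 1.77-fold higher in SG. PEX19, the chaperone of membrane proteins, rose by 1.26 log2 and PEX14 of the docking complex by 0.94, with PEX5, the main import receptor, at 0.77. PEX31 and PEX4 fell by 0.64 and 0.20 log2. PEX21 fell by 0.51 ± 0.16 log2, but its arrays overlapped, at 11.64, 11.17 and 11.04 on SG agar and 11.96, 11.80 and 11.62 on SD agar. Without SG agar array C its change was −0.39 log2 and no longer passed, and PEX4 no longer passed without SG agar array A or C or SD agar array A or C.

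In liquid the same change of nutrient gave 31 rises and 6 falls among the 45 genes with a median of 0.94 log2, against 43.2% and 34.9% of all genes and a median of 0.09. Under quantile normalisation 29 rose and 8 fell with a median of 0.67 log2, and after centring 29 and 9 with 0.76. CAT2 rose by 3.90 ± 0.13 log2 (limma, adjusted p = 4.11e-37), with 12.93, 12.93 and 13.01 in SG liquid and 9.11, 9.11 and 8.94 in SD liquid. POX1 rose by 5.52 ± 0.22 log2, POT1 by 4.96 ± 0.23, CRC1 by 3.39, PXA1 by 3.28 and YAT2 by 2.95. Of the 25 peroxins 16 rose in liquid, 8 of them at least 2-fold (17.1% of all genes), with a median of 0.51 log2. PEX18 was at least 3.90-fold higher in SG liquid, and PEX29, PEX19, PEX17, PEX27, PEX3, PEX22 and PEX5 rose by 1.07 to 1.32 log2. For CRC1, PXA1, YAT2, PEX17 and PEX27, wild-type SD liquid held the lowest mean of all groups. The genes that fell at least 2-fold were 3, against 12.3% of all genes: ANT1 by 1.56 ± 0.13 log2, PEX21 by 1.35 ± 0.16 and PEX31 by 1.21 ± 0.11. OAF1 and PIP2 did not pass the test in liquid, at −0.02 and −0.09 log2. Without the SG liquid array C, which stood apart, 35 of the 45 genes passed in place of 37, and POX1 rose by 5.61, POT1 by 4.91 and CAT2 by 3.87 log2.

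**Figure D2:**
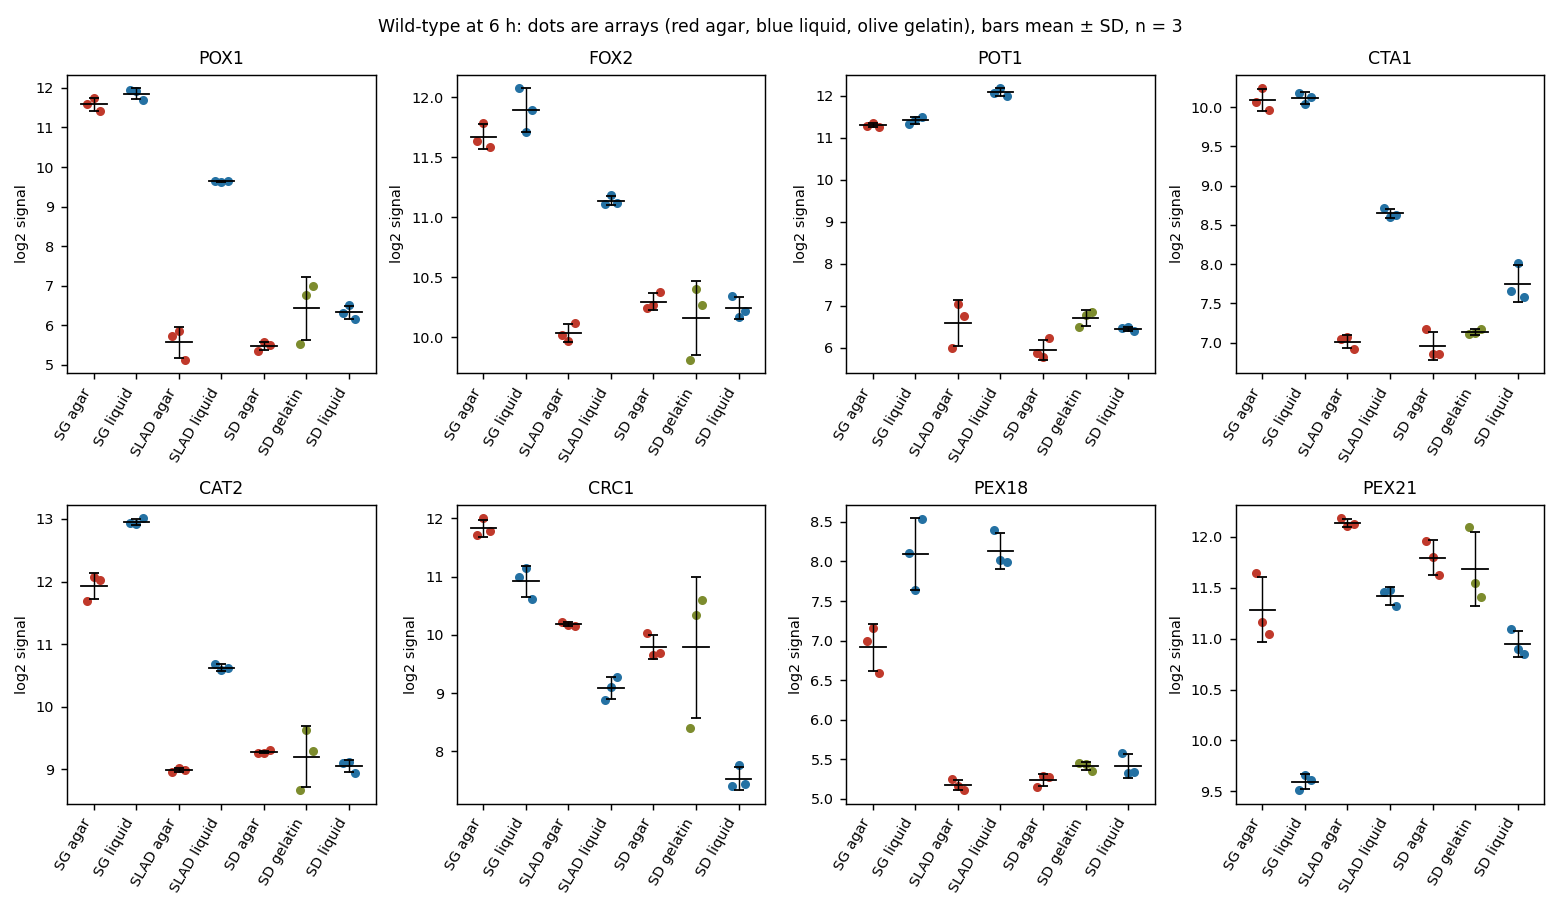
Each panel is a gene and each dot an array of wild-type at 6 h on the log2 signal axis, in red for agar, blue for liquid and olive for gelatin, with bars for the mean ± SD (n = 3). POX1 and POT1 are high in SG on both substrates and in SLAD only in liquid, while PEX18 and PEX21 take opposite orders in SG and SD liquid.

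Other gene lists also differed between SG and SD. Of 12 genes known to be repressed by glucose 11 rose on agar and 12 in liquid, with medians of 3.13 and 2.44 log2, and their mean level was 11.91 to 12.13 log2 on SG agar against 8.70 to 8.79 on SD agar. Of 20 general stress genes 16 rose and 1 fell on agar and 20 rose in liquid, with medians of 1.50 and 4.02 log2. Of 10 stationary-phase markers 6 rose and 2 fell on agar and 9 rose in liquid. The part these have in the changes above was not tested. In a list of 21 other peroxisomal and fatty acid genes, 16 rose and none fell on SG agar by limma's adjusted test, and 15 rose and 2 fell in SG liquid.

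The strain PGAL1-FLO11 gave the comparison of SG with SD on agar a second time, on arrays that wild-type did not share. In it 30 of the 45 genes rose and 4 fell with a median of 0.64 log2, against 36.3% and 28.2% of all genes. Under quantile normalisation 23 rose and 9 fell, and with each array centred on its median 27 rose and 8 fell. POX1 and POT1 were at least 48.7-fold and 35.4-fold higher in SG, since all SD agar arrays of this strain were below background for both. CTA1 rose by 3.58 ± 0.14 log2, YAT2 by 3.04, PXA1 by 2.97, CAT2 by 2.85, FAA2 by 2.64 and TES1 by 2.42, and PEX18 was at least 2.63-fold higher. PEX31, PEX21, OAF1 and PEX4 fell by 0.93, 0.52, 0.47 and 0.18 log2. PCS60, which had not passed in wild-type, rose by 1.41 ± 0.20 log2 in this strain. On SD agar it averaged 11.27 log2 in PGAL1-FLO11 and 13.47 in wild-type. On SG agar it averaged 12.68 and 13.24, so the strains were farther apart on SD agar and PGAL1-FLO11 was the lower on both.

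**Figure D3:**
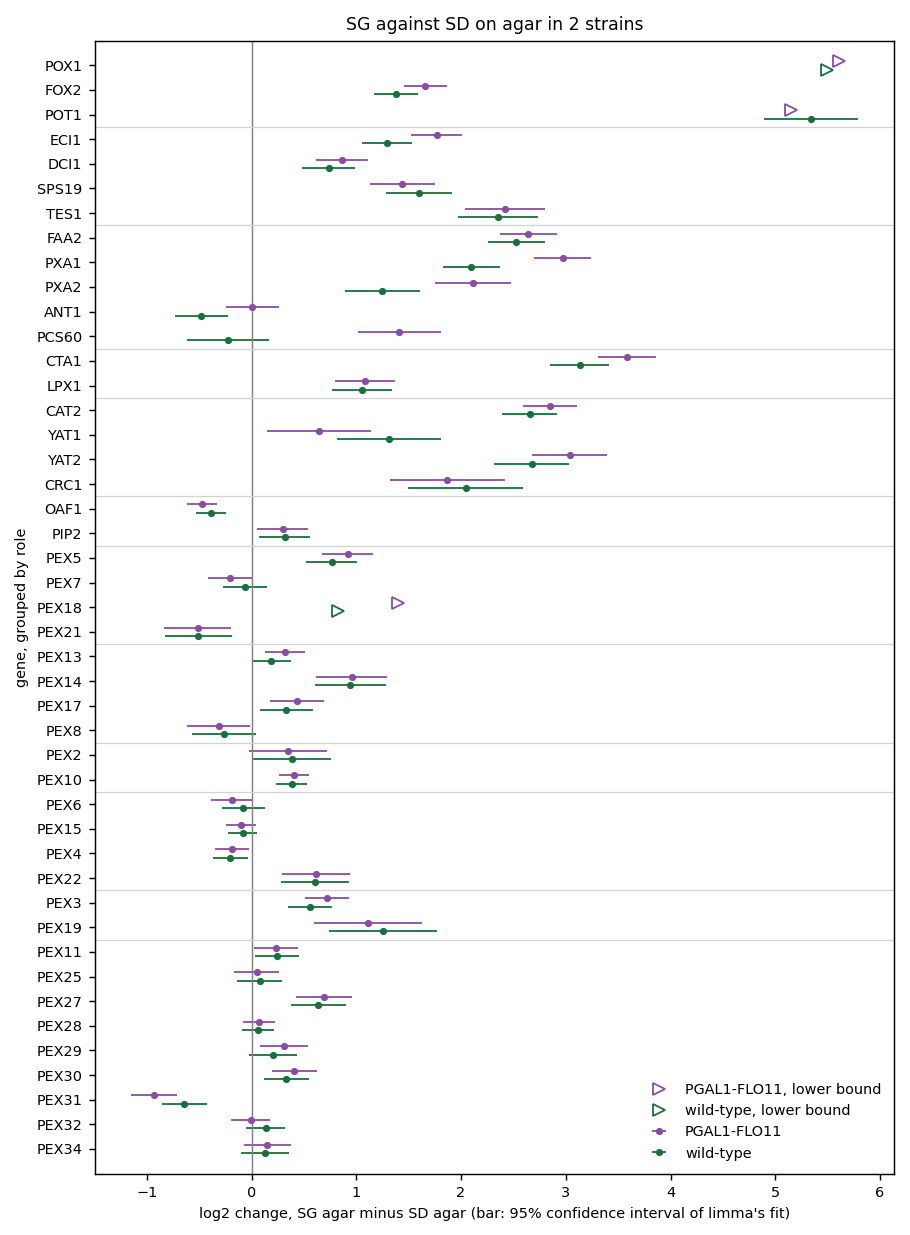
Each row is a gene and the horizontal axis the log2 change of SG agar minus SD agar, with dots for the change and bars for the 95% confidence interval, for PGAL1-FLO11 in purple and wild-type in green (n = 3 arrays a group). Open triangles, without bars, are lower bounds where all SD agar arrays were below background. The strains share no array. POX1 was at least 48.7-fold and 45.2-fold higher, POT1 at least 35.4-fold higher in PGAL1-FLO11 and 5.34 log2 higher in wild-type, and most PEX genes lie near 0 in both.

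SLAD against SD asked for the effect of the other nutrient change. On agar none of the 45 genes passed limma's test, against 1.78% of all genes. A fit on the 6 arrays of this comparison alone called 16 of the 45 genes, 8 in each direction, and 27.9% of all genes. The largest values were for POT1 at 0.64 ± 0.23 log2 (limma, adjusted p = 0.14) and YAT2 at 0.55. In liquid 25 genes rose and 7 fell with a median of 0.35 log2, against 33.3% and 30.2% of all genes and a median of 0.03. Under quantile normalisation 22 rose and 9 fell with a median of 0.31 log2, and after centring 21 and 9 with 0.25. The median of all genes was then −0.04 and −0.07.

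POT1 read 12.06, 12.18 and 11.99 log2 in SLAD liquid and 6.48, 6.48 and 6.40 in SD liquid, a rise of 5.63 ± 0.23 (limma, adjusted p = 1.54e-32). These are the highest POT1 values of any wild-type group, above those in SG. POX1 read 9.64, 9.63 and 9.65 log2 in SLAD liquid and 6.31, 6.50 and 6.16 in SD liquid, a rise of 3.31 ± 0.22. PEX18 read 8.40, 8.02 and 7.99 log2 in SLAD liquid and lay below background in SD liquid, so it was at least 4.01-fold higher in SLAD. SPS19 rose by 1.89 log2, CAT2 by 1.57, CRC1 by 1.56, FOX2 by 0.89 and CTA1 by 0.89. YAT1 and PXA2, both raised in SG, did not pass in SLAD liquid, at −0.25 and −0.12 log2.

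Both activators rose in SLAD liquid, PIP2 by 0.70 ± 0.12 log2 and OAF1 by 0.39 ± 0.07. PIP2 read 10.55, 10.84 and 10.58 log2 there and 9.92, 9.88 and 10.05 in SD liquid, and no array of SD liquid reached the SLAD arrays. Of the export machinery, PEX4, the ubiquitin-conjugating enzyme of the receptors, rose by 1.10 log2 and PEX15, which anchors the export ATPase, by 0.85. PEX10 of the RING complex rose by 0.73 log2, whereas PEX2 of the same complex fell by 0.72. PEX2 averaged 11.92 log2 in SLAD liquid and 12.65 in wild-type SD liquid. In SD liquid of the other strains it averaged 11.43 (STE11-4) to 12.09 (msb2 knockout), a range that includes the SLAD value. PEX13 of the docking complex fell by 0.54 log2, and PEX32, PEX30 and PEX31 of the group that sets size and number by 0.65, 0.60 and 0.56. Of the glucose-repressed genes 10 of 12 rose and 1 fell in the same arrays, with a median of 1.72 log2, and 18 of 20 stress genes rose, with a median of 2.26. Their part in the result was not tested.

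Agar was next compared with liquid in SLAD. There 12 genes rose and 26 fell with a median of −0.42 log2, against 39.3% and 33.6% of all genes and a median of 0.07. Falls of at least 2-fold were found for 14 of the 45 genes and for 12.8% of all genes. All 3 enzymes of the cycle fell, all 4 auxiliary enzymes fell with a median of −1.62, and CTA1 and LPX1 fell by 1.64 and 1.08.

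POT1 read 5.99, 7.04 and 6.74 log2 on SLAD agar and 12.06, 12.18 and 11.99 in SLAD liquid, and it fell by 5.48 ± 0.23 on agar (limma, adjusted p = 5.3e-32). POX1 was below background on SLAD agar, at 5.74, 5.85 and 5.13 log2, and at least 11.8-fold lower there than in SLAD liquid. FOX2 read 10.02, 9.97 and 10.12 log2 on SLAD agar and 11.11, 11.18 and 11.12 in SLAD liquid, a fall of 1.10 ± 0.10. In the 3 genes every agar array lay below every liquid array. PEX18 was at least 4.16-fold lower on SLAD agar. TES1 fell by 2.35 log2, SPS19 by 2.14 and CAT2 by 1.64.

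The remaining carnitine genes went against CAT2 on SLAD agar: CRC1 rose by 1.10 ± 0.27 log2 (limma, adjusted p = 0.000316), YAT1 by 0.82 and YAT2 by 0.62. PCS60 also rose, by 0.94 log2. The activators fell on SLAD agar, PIP2 by 1.32 ± 0.12 log2 and OAF1 by 0.42 ± 0.07. PEX11, which promotes peroxisome division, read 13.32, 13.38 and 13.41 log2 on SLAD agar and 14.21, 14.43 and 14.35 in SLAD liquid, a fall of 0.96. PEX10, PEX8, PEX4, PEX2 and PEX15 fell by 1.16, 1.05, 1.04, 0.95 and 0.90 log2. PEX13, PEX14, PEX32 and PEX21 rose by 0.88, 0.78, 0.73 and 0.72 log2. Of the 20 stress genes 19 fell, with a median of −2.82 log2, of the 12 glucose-repressed genes 9 fell and 1 rose, and of the 10 stationary-phase markers 8 fell and 2 rose. Their part in these falls was not tested.

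In the comparison of agar with liquid in SG, none of the enzymes of the cycle passed the test. There 7 of the 45 genes rose and 19 fell with a median of −0.22 log2, against 34.9% and 29.7% of all genes and a median of 0.04. POX1 was at −0.27 ± 0.22 log2, POT1 at −0.12 ± 0.23, FOX2 at −0.22 ± 0.10 and CTA1 at −0.03 ± 0.14, and none of these 4 passed. CAT2 fell by 1.02 ± 0.13 log2. PEX21 read 11.64, 11.17 and 11.04 log2 on SG agar and 9.51, 9.66 and 9.62 in SG liquid, and its rise of 1.69 ± 0.16 was the largest of the 45 genes (limma, adjusted p = 1.89e-14). PEX18 read 6.998, 7.16 and 6.58 log2 on SG agar and 8.10, 7.64 and 8.54 in SG liquid, a fall of 1.18. PCS60 rose by 1.61 log2 and ANT1 by 1.05, and PEX2, PEX29, PEX3 and PEX30 fell by 1.44, 1.33, 0.97 and 0.92. Without the SG liquid array C, PCS60 rose by 1.25 and PEX18 fell by 0.96. All 20 stress genes fell on SG agar, with a median of −2.52 log2, while the 12 glucose-repressed genes had 5 rises and 3 falls, with a median of 0.10.

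In SD, agar against liquid gave 8 rises and 13 falls among the 45 genes with a median of −0.02 log2, against 30.8% and 21.1% of all genes and a median of 0.09. The share of these genes that passed, in either direction, was not above the 51.9% of all genes. CRC1 read 10.02, 9.65 and 9.68 log2 on SD agar and 7.40, 7.76 and 7.43 in SD liquid, a rise of 2.26 ± 0.27 (limma, adjusted p = 8.44e-10). PCS60 read 13.55, 13.42 and 13.42 log2 on SD agar and 12.03, 11.80 and 12.15 in SD liquid, a rise of 1.47 ± 0.20 (limma, adjusted p = 1.17e-08). Neither gene had an agar array within the liquid range. PEX21 rose by 0.85 ± 0.16 log2, YAT2 by 0.55 and PXA1 by 0.50. Wild-type SD liquid held the lowest of the 29 group means for CRC1, YAT2 and PXA1. Over the 13 settings of strain and nutrient with agar and liquid, PXA1 rose on agar in 2 and fell in 4.

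Falls on SD agar were led by PEX2, a RING ligase, which read 10.98, 10.90 and 11.05 log2 on agar and 12.59, 12.78 and 12.58 in liquid. Its fall was 1.67 ± 0.19 log2 (limma, adjusted p = 7.74e-11), with no overlap. This was the largest fall of PEX2 among the 13 settings of strain and nutrient with agar and liquid. PEX2 averaged 12.65 log2 in wild-type SD liquid, against 11.43 (STE11-4) to 12.09 (msb2 knockout) in SD liquid of the other strains. TES1, LPX1, CTA1, PEX11 and PIP2 fell by 1.26, 0.97, 0.79, 0.62 and 0.45 log2. POX1 was below background on SD agar and at least 1.18-fold lower there. POT1 at −0.50 log2, FOX2 at 0.05, CAT2 at 0.22, YAT1 at 0.50 and OAF1 at 0.04 did not pass. The 21 other peroxisomal and fatty acid genes had 6 rises and 6 falls.

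Gelatin against liquid in SD tested another solid substrate. It used the same wild-type SD liquid arrays as agar against liquid, with their high PEX2 and low CRC1. There 5 of the 45 genes rose and 12 fell, against 15.6% and 21.6% of all genes. Under quantile normalisation these were 7 and 11. CRC1 read 8.40, 10.35 and 10.61 log2 on gelatin arrays A, B and C, all above the 7.40, 7.76 and 7.43 of SD liquid. CRC1 rose by 2.25 ± 0.27 log2, PCS60 by 1.49 ± 0.20 and PEX21 by 0.74, and PEX2, LPX1 and TES1 fell by 0.97, 0.72 and 0.71. Without gelatin array A, CRC1 rose by 2.95 log2, PCS60 by 1.69 and PEX21 by 0.54, and PEX2 and LPX1 fell by 0.49 and 0.36, while TES1 at −0.23 no longer passed. A fit on the 6 arrays of this comparison alone called 1 of the 45 genes, PCS60, and 1.74% of all genes.

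The difference between agar effects was tested for SLAD and for SG, each against SD. The agar effect in SLAD minus that in SD was above 0 for 6 genes and below 0 for 22, 28 in all, against 24.6% and 26.7% of all genes. POT1 had −4.98 ± 0.32 log2, SPS19 −1.95 and CAT2 −1.86. POX1 and PEX18 also passed below 0, but their agar values were below background in SLAD and in SD, so no size is given. PEX13, PEX2 and PEX14 had 0.73, 0.72 and 0.57 log2, and without SLAD liquid array A the value for PEX2 was 0.62 and no longer passed. The agar effect in SG minus that in SD was above 0 for 9 genes and below 0 for 16, against 23.4% and 24.3% of all genes, led by TES1 at 1.42 log2, ANT1 at 1.08 and LPX1 at 1.08, and by CRC1 at −1.34, CAT2 at −1.25 and PXA1 at −1.18. These differences share the SD arrays.

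**Figure D4:**
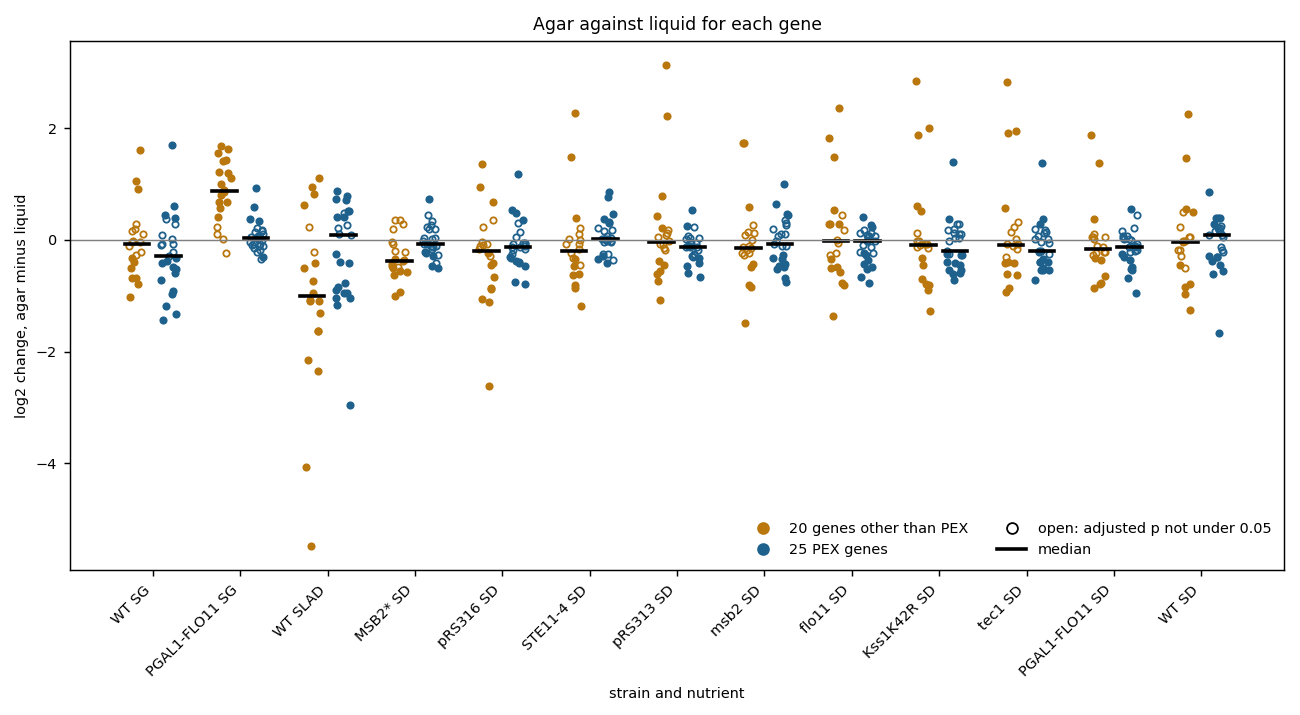
For each of 13 settings of strain and nutrient, dots give the log2 change of agar minus liquid of each gene, in gold for the 20 genes other than PEX and blue for the 25 PEX genes. Filled dots passed the test, open dots did not, and bars are medians. Genes below background are drawn at their measured change. The gold dots lie mostly above 0 in PGAL1-FLO11 in SG and mostly below it in wild-type in SLAD.

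Over the 13 settings of strain and nutrient in which agar and liquid were both measured, a few genes kept one direction. CRC1 rose on agar in 12 of 13 settings, and its change ran from 0.35 log2 in the MSB2* strain, where it did not pass, up to 3.13 in the pRS313 strain. Of all genes, 0.587% rose in 12 or more. YAT1, PCS60 and PEX21 rose in 9 settings each, and PEX21 fell in 1, the MSB2* strain at −0.51 log2. Rises in 9 or more settings were found for 4 of the 45 genes and for 4.53% of all genes.

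LPX1, TES1 and PEX10 fell on agar in 11 settings, POX1, FAA2, PEX2 and PEX30 in 10, and PIP2 and PEX3 in 9. For POX1 these include PGAL1-FLO11 in SD, where it was below background on both substrates. TES1, POX1 and FAA2 rose in the 1 remaining setting that passed, PGAL1-FLO11 in SG. Falls in 9 or more settings were found for 9 of the 45 genes and for 7.65% of all genes. PEX2, PEX10, PEX30, PEX3, PIP2 and LPX1 rose in none of the 13 by the same test. PEX27 rose in 7 and fell in 1, the tec1 knockout at −0.34 log2. No setting shares an array with another.

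The agar response in SG differed between PGAL1-FLO11 and wild-type. In PGAL1-FLO11, 20 of the 45 genes rose on SG agar and 1 fell with a median of 0.18 log2, against 11.7% of all genes that rose and 21.8% called in either direction. Of the 18 metabolic genes 16 rose and none fell, by limma's adjusted test, with a median of 0.94 log2, whereas in wild-type 3 rose and 6 fell. The difference itself, agar effect in PGAL1-FLO11 minus that in wild-type, passed for 32 genes, 27 above 0 and 5 below, against 26.2% and 27.9% of all genes.

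PXA1 shows the difference. In PGAL1-FLO11 it read 10.73, 10.91 and 10.74 log2 on SG agar and 8.79, 9.20 and 9.36 in SG liquid, a rise of 1.68 ± 0.14 (limma, adjusted p = 9.71e-16). In wild-type it read 10.01, 10.20 and 10.27 log2 on SG agar and 10.88, 10.84 and 10.82 in SG liquid, a fall of 0.69. CAT2 read 12.40, 12.31 and 11.98 log2 on SG agar of PGAL1-FLO11 and 10.80, 10.99 and 11.31 in its SG liquid, a rise of 1.20 against the fall of 1.02 in wild-type. The differences of the agar effects were 2.36 log2 for PXA1, 2.22 for CAT2 and 2.10 for PEX18, and −1.80 for PEX21, −0.79 for PEX25 and −0.75 for PEX31.

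The strains were also compared on each substrate. PGAL1-FLO11 against wild-type on SG agar gave 3 rises and no fall by limma's adjusted test, against 65 and 35 of all 5449 genes (1.84% called). The 3 were YAT2 at 0.71 log2, PEX18 at 0.69 and PXA1 at 0.64. Without wild-type SG agar array C, only PXA1 passed. In SG liquid 5 rose and 31 fell with a median of −0.44 log2, against 33.2% and 32.0% of all genes. CAT2 fell by 1.92 ± 0.13 log2, PXA1 by 1.73, PXA2 by 1.57, PEX29 by 1.54, PEX18 by 1.41, DCI1 by 1.38 and FOX2 by 1.14. PEX21 read 11.72, 11.30 and 11.13 log2 in SG liquid of PGAL1-FLO11 and 9.51, 9.66 and 9.62 in that of wild-type, and rose by 1.79 ± 0.16 (limma, adjusted p = 1.7e-15). PEX31, PEX25, PEX13 and ANT1 rose by 0.56 to 0.68 log2. In the same arrays 19 of 20 stress genes fell, with a median of −2.11 log2, and 7 of 10 stationary-phase markers fell, whereas the 12 glucose-repressed genes had 3 rises and 4 falls. Their part in the difference was not tested. Within PGAL1-FLO11, SG against SD in liquid gave 21 rises and 7 falls among the 45 genes, against 31.4% and 25.4% of all genes. Under quantile normalisation these were 17 and 14. POX1 and POT1 were at least 27.5-fold and 18.6-fold higher in SG liquid, since all SD liquid arrays of this strain were below background for both. CRC1 rose by 2.11 log2, and PEX31, ANT1 and PEX6 fell by 0.62, 0.51 and 0.498.

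Time was compared in wild-type on SD. On agar, 6 h against 0 h gave 6 rises and 7 falls, against 10.2% and 11.9% of all genes, and 7 and 5 under quantile normalisation. CRC1 rose by 1.07 ± 0.24 log2, PCS60 by 1.06 and FAA2 by 0.79, and PEX2, YAT2 and TES1 fell by 0.74, 0.72 and 0.45. The fall of TES1 did not pass under quantile normalisation, at −0.40, or without any 1 of the 3 arrays of 6 h. In liquid, 6 h against 0 h gave 11 rises and 13 falls, against 20.3% and 35.5% of all genes. The median change of all genes in this comparison was −0.12 log2 as deposited, −0.00 under quantile normalisation and 0.03 after centring, and the split became 19 and 6 or 18 and 7. ANT1 rose by 1.10 ± 0.13 log2, PEX2 by 0.998 and PCS60 by 0.81, and YAT2, PEX27 and PXA1 fell by 1.13, 0.86 and 0.80. The titles of the 0 h liquid arrays carry a letter b, which the labels do not explain and those of 6 h lack, so it cannot be told apart from time. POX1 stayed low throughout, at 5.23 to 5.94 log2 on the 6 agar arrays of 0 h.

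Among the strains altered in the MAP-kinase pathway, PEX27, a relative of PEX11 and PEX25, was higher in the STE11-4 and MSB2* strains than in their plasmid controls. On agar it read 10.02, 10.20 and 9.74 log2 in STE11-4 and 8.62, 8.56 and 8.75 in its control pRS313, a rise of 1.35 ± 0.13 (limma, adjusted p = 4.6e-12). In MSB2* it read 10.002, 9.86 and 9.91 log2 on agar and 8.68, 8.54 and 8.56 in its control pRS316, a rise of 1.33 ± 0.13 (limma, adjusted p = 2.9e-12). The groups did not overlap in either pair, and the pairs share no arrays. In liquid PEX27 rose by 0.71 ± 0.13 log2 in STE11-4 and by 0.96 ± 0.13 in MSB2*, in comparisons added after the data had been seen. Its agar effect was larger in STE11-4 than in pRS313 by 0.64 ± 0.19 log2 (limma, adjusted p = 0.034), a difference that no longer passed when any 1 of 7 of the 12 arrays was left out. It was smaller in Kss1K42R than in wild-type by 0.59 ± 0.19 (limma, adjusted p = 0.042) and smaller in the tec1 knockout by 0.73 ± 0.19 (limma, adjusted p = 0.0075). These comparisons share the wild-type arrays, and under quantile normalisation neither passed, at −0.29 and −0.36 log2. Markers of mating type differed in the same agar arrays. Of 6 a-cell markers 3 rose in STE11-4, with a mean level of 7.96 to 8.11 log2 against 7.35 to 7.51 in pRS313, and of 4 alpha-cell markers 2 rose, with 8.82 to 8.95 against 7.86 to 8.025. In MSB2* 1 of the 6 rose, with 7.72 to 7.95 log2 against 7.54 to 7.59 in pRS316, and 1 of the 4, with 8.35 to 8.39 against 7.69 to 7.85. Their part in the PEX27 result was not tested. On agar PEX27 read 8.06, 8.12 and 8.32 log2 in Kss1K42R, 8.13, 8.06 and 8.06 in the tec1 knockout and 7.97, 8.06 and 8.31 in wild-type.

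POX1 and POT1 were also higher in both strains than in their controls. On agar POX1 read 6.77, 6.84 and 6.61 log2 in STE11-4 and 5.29, 5.19 and 5.24 in pRS313, where every array was below background, so it was at least 1.51-fold higher in STE11-4. In MSB2* it read 9.51, 8.96 and 9.74 log2 on agar and 6.49, 6.57 and 6.72 in pRS316, a rise of 2.81 ± 0.22 (limma, adjusted p = 7.1e-17). POT1 rose on agar by 1.48 ± 0.23 log2 in STE11-4 and by 1.84 ± 0.23 in MSB2*. POX1, POT1 and PEX27 were the only genes of the 45 that passed in STE11-4 on agar, against 3.67% of all genes called. A fit on the 6 arrays alone called 13, and 16.3% of all genes. In MSB2* on agar 10 of the 45 rose and none fell by limma's adjusted test, against 6.68% of all genes that rose. Under quantile normalisation these were 8 and 1. The other 7 were FAA2 at 1.05 log2, CAT2 at 0.85, YAT2 at 0.84, TES1 at 0.63, ECI1 at 0.52 and PEX28 at 0.26, and PEX18, which was below background on all pRS316 agar arrays and on 1 of 3 MSB2* arrays and is given no size. Leaving out MSB2* agar array A or C, TES1, PEX18 and PEX28 no longer passed. In MSB2* the agar effect differed from that in pRS316 for POX1, by 1.61 ± 0.31 log2 (limma, adjusted p = 0.00048), and for FAA2, by 0.67. These are 2 of the 45 genes, against 1.73% of all genes called, and FAA2 no longer passed without any 1 of several arrays. In STE11-4 the genes with such a difference were also 2, against 4.55% of all genes called, PEX27 and PEX3, with PEX3 at 0.48 log2 and no longer passing without any 1 of several arrays.

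**Figure D5:**
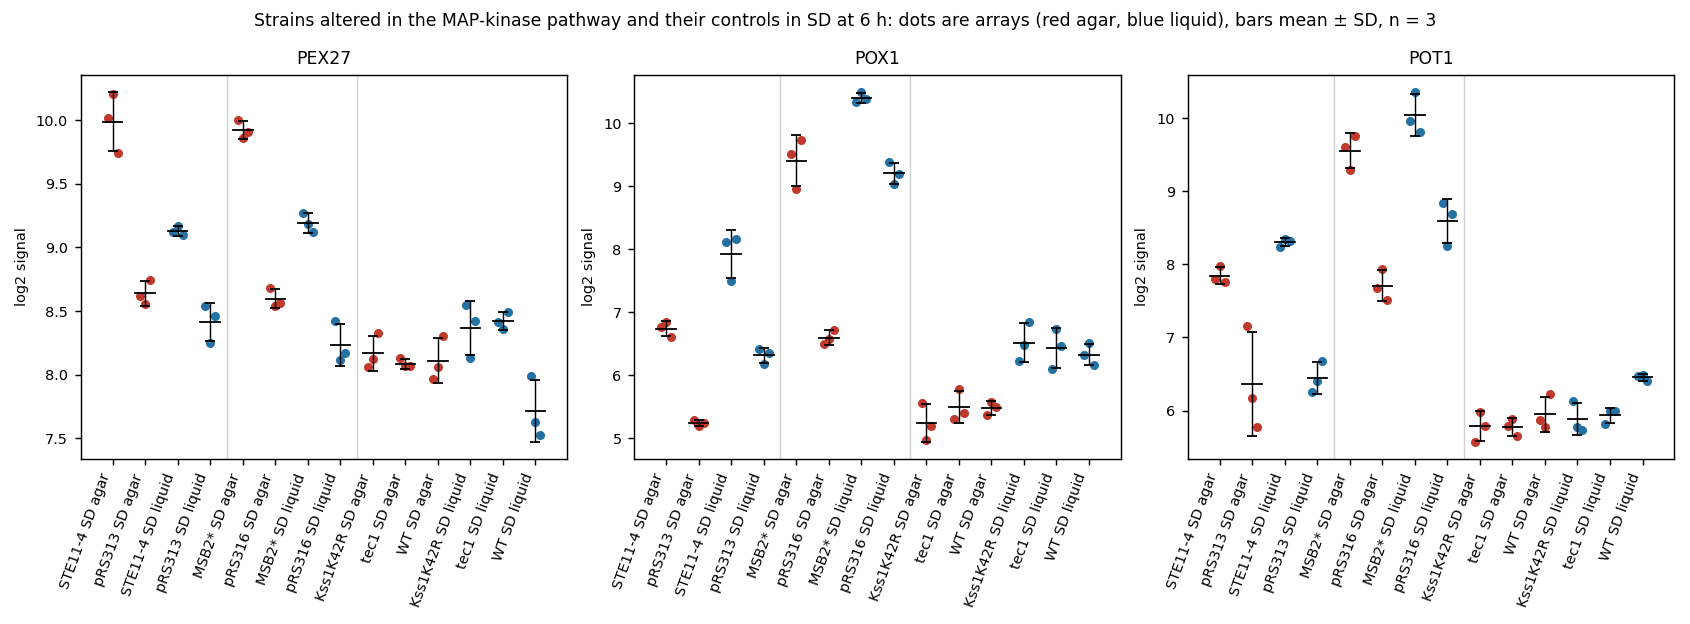
Dots are single arrays on the log2 signal axis, red for agar and blue for liquid, with bars for the mean ± SD (n = 3), for PEX27, POX1 and POT1 in SD at 6 h. Each altered strain stands left of its control. PEX27 is near 10 in STE11-4 and MSB2* on agar and below 9 in both plasmid controls, and POX1 in pRS316 liquid lies above 9.

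In liquid, a comparison added after the data had been seen, 14 of the 45 genes rose and 4 fell in MSB2* against pRS316, against 10.1% and 10.2% of all genes. In STE11-4 against pRS313 in liquid 7 rose and 2 fell, against 8.28% and 7.96%. POX1 rose by 1.20 ± 0.22 log2 in MSB2* and by 1.61 ± 0.22 in STE11-4, and POT1 by 1.45 ± 0.23 and 1.86 ± 0.23. YAT1, YAT2, CAT2 and CRC1 rose in MSB2* by 1.29, 1.25, 0.92 and 0.77 log2 (CRC1 no longer passed without MSB2* array B or C or pRS316 array A or C), and CAT2 rose in STE11-4 by 0.59. ANT1, PEX6 and PEX31 fell in MSB2* by 0.46, 0.39 and 0.35 log2, and PEX31 no longer passed without MSB2* array A or pRS316 array B or C. PEX25 and PEX17 fell in STE11-4 by 0.45 and 0.36 log2, and neither passed without STE11-4 array C or in a fit on the 6 arrays alone. Without STE11-4 liquid array C, 4 of the 45 genes passed in STE11-4. The stress genes were higher in the same liquid arrays, with 19 of 20 rising in STE11-4, median 1.51 log2, and 11 of 20 in MSB2*, median 0.81. On agar 0 of 20 passed in STE11-4 by limma's adjusted test and 3 of 20 rose in MSB2*. Of 10 stationary-phase markers 7 rose in STE11-4 liquid, with a mean level of 10.80 to 11.27 log2 against 9.60 to 9.74 in pRS313, and 6 in MSB2* liquid, with 11.48 to 11.55 against 10.33 to 10.37 in pRS316. Of 12 glucose-repressed genes 4 rose in STE11-4 liquid, with 9.05 to 9.72 log2 against 8.59 to 8.84, and 7 in MSB2* liquid, with 10.38 to 10.60 against 9.65 to 9.985. The part of these lists in the liquid results was not tested.

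The plasmid controls were not alike. In pRS316 against pRS313 in liquid, another comparison added after the data had been seen, 11 of the 45 genes rose and 1 fell, against 9.69% and 5.52% of all genes. POX1 read 9.38, 9.03 and 9.20 log2 in pRS316 and 6.41, 6.18 and 6.35 in pRS313, a rise of 2.89 ± 0.22 (limma, adjusted p = 3.3e-17). POT1 read 8.83, 8.26 and 8.69 log2 in pRS316 and 6.25, 6.40 and 6.68 in pRS313, a rise of 2.15 ± 0.23. CRC1, CAT2, CTA1, FAA2 and TES1 rose by 0.79 to 1.08 log2, and PEX34 fell by 0.38, which no longer passed without pRS313 array A or pRS316 array B. In the same arrays 14 of 20 stress genes and 9 of 12 glucose-repressed genes rose. The plasmids carry different markers, and the media that select for them are not described in the labels, so plasmid and medium cannot be told apart here. The liquid arrays of pRS313 and STE11-4 also carry the unexplained letter b in their titles, and those of pRS316 and MSB2* and all agar arrays of these strains do not. It cannot be told apart from pRS316 against pRS313 in liquid, or from agar against liquid in pRS313 and STE11-4.

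Kss1K42R and the knockouts were compared with wild-type on SD agar. In Kss1K42R against wild-type 3 rose and 3 fell (1 and 2 under quantile normalisation), against 67 and 250 of all 5449 genes (5.82% called). In the tec1 knockout 3 rose and 3 fell, against 77 and 287 (6.68%). YAT1 on agar read 12.55, 12.30 and 12.05 log2 in Kss1K42R and 12.36, 12.24 and 12.31 in the tec1 knockout, against 11.28, 10.89 and 10.86 in wild-type, a rise of 1.29 ± 0.25 in each. CRC1 rose by 0.92 and 0.87 log2, and FAA2 fell by 0.50 and 0.60. The comparisons use the same wild-type arrays. PEX4 rose by 0.27 and 0.29 log2, and PEX28 fell by 0.33 and 0.32. PEX6 also fell in Kss1K42R and DCI1 in the tec1 knockout, by 0.32 and 0.41 log2. Of these changes, those of YAT1 in both strains, FAA2 in the tec1 knockout and PEX28 in Kss1K42R passed whichever 1 array was left out, and the others did not.

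The msb2 knockout on agar gave 10 rises and 4 falls (10 and 8 under quantile normalisation), against 967 and 756 of all 5449 genes (31.6% called). FAA2 read 8.04, 9.03 and 8.35 log2 in the msb2 knockout and 9.53, 9.58 and 9.21 in wild-type, a fall of 0.97 ± 0.14 (limma, adjusted p = 1.2e-07) with no overlap. POX1 was at least 1.20-fold higher than in wild-type, where it was below background, and PEX19, PXA2, PEX22, PEX14, PEX5, PEX17, PEX27, PEX3 and PEX10 rose by 0.31 to 0.80 log2. PCS60, PEX7 and PEX15 fell by 0.60, 0.31 and 0.23 log2. Without msb2 agar array A, 17 genes passed in place of 14. With pRS316 in place of wild-type as the control, 10 of the 45 genes and 12.1% of all genes passed, 2 of them among these 14, and POX1 was at −0.24 log2 and PCS60 at 0.41. In the flo11 knockout against wild-type on agar none of the 45 passed limma's test, against 1.05% of all genes. With pRS316 in place of wild-type as the control, 23 passed, and 39.6% of all genes.

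The agar effect itself differed from that of wild-type for 6 genes in Kss1K42R and for 7 each in the tec1 and msb2 knockouts, against 6.70%, 10.5% and 23.1% of all genes. In the flo11 knockout it differed for 6, against 17.5% of all genes. PEX2 was above 0 in all 4 differences, by 0.95 log2 in Kss1K42R, 0.95 in the tec1 knockout, 0.91 in the msb2 knockout and 1.01 in the flo11 knockout. The 4 share the wild-type agar and liquid arrays, and with pRS316 in place of wild-type PEX2 was at 0.02 in the msb2 knockout and at 0.12 in the flo11 knockout and passed in neither. YAT1 was at 1.37 log2 in Kss1K42R, 1.41 in the tec1 knockout and 0.98 in the flo11 knockout. FAA2 was at −0.86 log2 in Kss1K42R, −0.82 in the tec1 knockout and −1.44 in the msb2 knockout. With pRS316 in place of wild-type none of the 7 genes of the msb2 knockout passed by limma's adjusted test, FAA2 at −0.38 log2 among them, and 2 others did, against 7.71% of all genes. In the flo11 knockout 2 of the 6 passed in that fit. The 3 genes above 0 and 3 below in the flo11 knockout became 7 and 1 under quantile normalisation and 7 and 2 after centring. Leaving out flo11 liquid array C left none of the 45 and leaving out array B gave 12. The 3 above and 3 below 0 in Kss1K42R became 3 and 1 under quantile normalisation. The 3 above and 4 below in the tec1 knockout became 5 and 1 under quantile normalisation and 3 and 2 after centring, and the same split in the msb2 knockout became 4 and 3 after centring.

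Agar against liquid within the SD strains is given here by counts. In Kss1K42R 7 of the 45 genes rose and 18 fell, against 1093 and 1272 of all 5449 genes (43.4% called). In the tec1 knockout 7 rose and 17 fell (10 and 12 under quantile normalisation), against 990 and 1268 (41.4%). In the msb2 knockout 7 rose and 15 fell, against 1077 and 1187 (41.5%). In the flo11 knockout 9 rose and 15 fell (15 and 10 under quantile normalisation), against 658 and 1057 (31.5%). In pRS313 7 rose and 11 fell (8 and 7 under quantile normalisation), against 319 and 769 (5.85% and 14.1%). In STE11-4 8 rose and 10 fell, against 842 and 892 (31.8%). In pRS316 7 rose and 17 fell, against 1020 and 1277 (42.2%). In MSB2* 1 rose and 14 fell, against 418 and 553 (17.8%), and leaving out MSB2* agar array B brought the 15 to 6. In PGAL1-FLO11 in SD 4 rose and 14 fell (7 and 11 under quantile normalisation), against 1135 and 1180 (42.5%).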

How the data were processed

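RNA of 90 Affymetrix arrays was deposited by the authors as log2 values summarised with RMA, per the submitters' processing notes; neither version nor options appear in the sources used here. Probe sets of 1 named S. cerevisiae gene were kept, the brightest per gene for the 47 genes with several, which gave 5449 genes. Groups were taken from the labels. A linear model with 1 mean per group was fitted with limma 3.58.1 (R 4.3.3), using all 90 arrays together, and adjusted p-values under 0.05 after Benjamini-Hochberg adjustment over all genes were called. An array's background limit was the 95th percentile of its signals for probe sets that name no S. cerevisiae gene of the reference table. Precision is limited by the 3 arrays in most groups.

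The members, the lists and the comparisons were chosen with earlier results of these data known. The text names mainly the members that passed with the 3 largest values in each direction. The core enzymes, CTA1, the carnitine genes and the activators are named in many comparisons as well, and further members in several. Agar against liquid of PGAL1-FLO11 in SG is given in part. Comparisons of agar with liquid within the SD strains are given by counts, and the differences of agar effects in the knockouts and Kss1K42R in part. The 3 liquid comparisons of plasmid strains were added after the data had been seen. The lists of 12 glucose-repressed, 20 general stress, 10 stationary-phase, 6 a-cell, 4 alpha-cell and 21 other peroxisomal and fatty acid genes are set beside the members only by their counts and levels.

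Replicate letters did not pair the arrays. Of 33 comparisons checked, same-lettered arrays deviated together, with every pair's correlation over 0.1, in 1 (flo11 on SD agar and liquid), and the correlations ran from −0.56 to 0.44. On data simulated for all 5449 genes, with 200 changed, the fit recovered 70% of changes of 0.5 log2, 96% of 1 and 100% of 2 for wild-type SD agar against liquid. For the SLAD minus SD difference of agar effects these shares were 34%, 84.5% and 98%. False calls, in the same order of sizes, were 9, 8 and 15 for the former and 3, 8 and 5 for the latter. Alternatives were quantile normalisation, median centring, leaving out the dimmest 25% of genes, averaging over probe sets of a gene, a fit on a comparison's own arrays, the replicate letter as a block, each array left out, pRS316 as the control of the msb2 and flo11 knockouts, and arrays A to C or D to F alone of the 0 h agar group.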

Additional observations from a re-analysis of the deposited data

Results flagged for a closer look

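The group of 6 wild-type SD agar arrays at 0 h is the only one with over 3 arrays, so it alone was searched for arrays far from the others, in 45 genes. PXA1 read 7.89 log2 in array A, below the 8.12 to 8.23 of the other arrays. CTA1 read 6.95 log2 in array E and PEX22 8.41 in array C, each standing away from the rest of its group by Dixon's ratio. Chance gives such a value in about 1 in 20 groups, and these are 3 of 45.

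Agar effects that differed between strains or nutrients by limma's adjusted test of the difference itself were counted over the 45 genes. They were 32 for PGAL1-FLO11 minus wild-type in SG, against 26.2% of all genes above 0 and 27.9% below. They were 28 for SLAD minus SD, against 24.6% and 26.7%, and 25 for SG minus SD, against 23.4% and 24.3%, in wild-type. In SD, each minus wild-type, they were 6 for Kss1K42R (6.70% of all genes called), 7 for the tec1 knockout (10.5%), 7 for the msb2 knockout (23.1%) and 6 for the flo11 knockout (17.5%). They were 2 for STE11-4 minus pRS313 (4.55%) and 2 for MSB2* minus pRS316 (1.73%).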

How the results depend on the processing

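Counts below are members of the 45 that passed, with the number as reported first. The 12 values of passed members whose sign turned come next. Under quantile normalisation PEX17 was at −0.056 log2 and −0.051 for SG against SD on agar in wild-type and PGAL1-FLO11, and at 0.0048 for 6 h against 0 h in liquid. Under the same setting PEX4 was at −0.077 for SG against SD in liquid, PEX28 at 0.061 for 6 h against 0 h in liquid and PEX27 at −0.0028 for SG against SD in PGAL1-FLO11 liquid. PEX8 on gelatin ran from −0.65 to 0.045 with 1 array left out, the highest without gelatin array A. With pRS316 in place of wild-type, the msb2 knockout on agar had POX1 at −0.24, PCS60 at 0.41, PEX7 at 0.039, PEX3 at −0.013 and PEX27 at −0.010.

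With a fit on a comparison's own arrays the counts moved for gelatin (17, 1), SLAD against SD on agar (0, 16), STE11-4 agar against liquid (18, 11), STE11-4 against pRS313 on agar (3, 13) and in liquid (9, 4), Kss1K42R against wild-type (6, 11), the flo11 knockout against wild-type (0, 4) and pRS316 against pRS313 (12, 21). In the differences of agar effects they moved for Kss1K42R (6, 12), the tec1 knockout (7, 13), the flo11 knockout (6, 12) and MSB2* (2, 5). Without the dimmest 25% of genes 30 of the 45 were tested. The counts were then 17 for SG agar against liquid, 19 for SG against SD on agar and 22 in liquid, 9 for the msb2 knockout and 3 for the tec1 knockout against wild-type, and 4 for MSB2* on agar, 10 for MSB2* in liquid, 0 for STE11-4 on agar and 3 for STE11-4 in liquid against their controls. For PGAL1-FLO11 they were 11 for SG agar against liquid, 1 on SG agar and 22 in SG liquid against wild-type, and 17 and 20 for SG against SD in liquid and on agar. For the differences of agar effects they were 4 in the tec1 and msb2 knockouts, 1 in STE11-4, 0 in MSB2* and 20 in PGAL1-FLO11.

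Quantile normalisation gave 3 in place of 6 for Kss1K42R and 2 in place of 6 for the tec1 knockout against wild-type, and centring gave 1 in place of 2 for the MSB2* difference. With pRS316 in place of wild-type the differences of agar effects were 2 in the msb2 knockout, neither among the 7 reported, and 16 in the flo11 knockout, 2 of them among its 6, and 23 genes passed for the flo11 knockout on agar. With the replicate block, 1 gene in place of 2 passed for the STE11-4 difference, and no other count moved by over 1.5 times.

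Leaving out 1 array at a time gave 0 to 1 for SLAD against SD on agar (1 without SLAD agar array A), 7 to 12 for 6 h against 0 h on agar, 6 to 13 for MSB2* agar against liquid, 2 to 3 for Kss1K42R, 2 to 5 for the tec1 knockout and 9 to 17 for the msb2 knockout against wild-type, 1 to 3 for PGAL1-FLO11 against wild-type on SG agar and 4 to 10 for STE11-4 against pRS313 in liquid. The differences of agar effects gave 3 to 6 in Kss1K42R, 4 to 7 in the tec1 knockout, 5 to 11 in the msb2 knockout, 0 to 12 in the flo11 knockout, 0 to 4 in STE11-4 and 1 to 2 in MSB2*. Over all settings 854 values of single members that had passed no longer did, 12 of passed members turned their sign, and 96 newly passed. The other 11935 counted as unchanged, although a turn of sign was not counted for members that had not passed. The cause of these moves was not tested, except that fewer genes are tested without the dim ones and fewer arrays give the error in the smaller fits. Genes below background have only a bound.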

Other observations

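Genes of peroxisomal metabolism outside the fatty acid list also differed between nutrients in wild-type. ADR1, whose product activates peroxisomal genes when glucose is scarce, averaged 13.08 ± 0.23 log2 on SG agar and 7.90 ± 0.17 on SD agar (SD, n = 3 each), a rise of 5.18 ± 0.29 (limma, adjusted p = 2.57e-24). In liquid ADR1 rose by 3.42 log2 in SG and by 1.32 in SLAD, each against SD. IDP3, the peroxisomal isocitrate dehydrogenase that supplies NADPH, rose by 2.11 log2 on SG agar and by 3.58 in SG liquid, and by 1.73 in SLAD liquid. PNC1, a nicotinamidase found in part in peroxisomes, rose by 2.79 log2 on SG agar and by 3.20 in SG liquid.

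MLS1, the malate synthase of the glyoxylate cycle, averaged 13.39 ± 0.07 log2 in SLAD liquid and 8.14 ± 0.08 in SD liquid (SD, n = 3 each), and it rose by 5.25 ± 0.30 (limma, adjusted p = 2.36e-24). On SLAD agar it fell by 3.90 log2 against SLAD liquid, and ADR1 and IDP3 fell by 2.07 and 1.17. STR3, a peroxisomal cystathionine beta-lyase of sulfur amino acid metabolism, had the opposite order, with a rise of 2.68 log2 on SLAD agar and a fall of 2.96 in SLAD liquid against SD liquid. MLS1 also stands in the list of glucose-repressed genes.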
